A study of Homo sapiens with 6 samples.

Results

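Complex I (NADH:ubiquinone oxidoreductase) is the entry enzyme of the mitochondrial respiratory chain, and its nuclear-encoded subunits carry symbols that start with NDUF. The genes examined here are all 48 rows of the deposited table, of 17687 genes, whose symbol starts with these letters. Of these, 37 encode subunits of complex I and 8, with the prefix NDUFAF, encode assembly factors that are not part of the finished enzyme. The other 3 rows were kept apart. They are NDUFA4, now known as a complex IV subunit, its paralogue NDUFA4L2, and NDUFC2-KCTD14, a read-through of NDUFC2 into its neighbour.

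The cells were KHM-5M, a human anaplastic thyroid cancer line. The 3 groups of 2 libraries were control cells given PBS, cells treated with sodium selenite (SS), and cells treated with sodium selenite together with NAC (N-acetylcysteine, an antioxidant), written SS+NAC. Each group is the same single line, and the selenite dose of these libraries was not taken from the labels, which give it no unit. The first comparison asks how complex I genes respond to SS. The comparison of SS with SS+NAC asks whether their levels differ when the antioxidant is given as well. No group was given NAC alone, so an effect of NAC itself cannot be told apart from a changed response to selenite.

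Complex I is L-shaped. Its matrix arm takes electrons from NADH through a flavin and a chain of iron-sulfur clusters to ubiquinone, and its membrane arm pumps protons. The core subunits do this chemistry, 7 of them encoded in the nucleus and the rest in mitochondrial DNA, and the supernumerary subunits surround them and are needed for assembly and stability. Complex I is also a known site where electrons leak to oxygen and form superoxide.

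The libraries held 17645545 to 23810056 expected counts. All 48 genes passed the filter on low counts, among 14005 genes tested. Counts of replicates differed by more than sampling noise in every group, least in control (chi-square per degree of freedom 3.05), more in SS (7.12) and most in SS+NAC (11.7). Of 5 epithelial markers, the keratins KRT8 and KRT18 were high in all libraries (731 to 1398 TPM). KRT8 was higher in SS (1266 and 1398 TPM) than elsewhere (977 to 1189 TPM). KRT18 was too (987 and 1099 against 731 to 933 TPM). EPCAM was low, and lower in SS (3.85 and 3.96 TPM) than elsewhere (5.04 to 6.07 TPM). KRT19 (0.96 to 2.19 TPM) and CDH1 (0.14 to 0.29 TPM) were low, and SS overlapped the other libraries. Of 3 mesenchymal markers, vimentin (VIM) was higher in SS (6504 and 6621 TPM) than in the other 4 libraries (5744 to 6202 TPM). CDH2 went the other way, at 35.2 and 30.9 TPM in SS and 48.2 to 53.7 TPM in the others. So did ZEB1, at 8.52 and 8.39 TPM in SS and 17.5 to 23.0 TPM in the others. Of 7 thyroid markers, 5 were present in the data. PAX8 was lower in SS (116 and 104 TPM) than in the other 4 libraries (125.7 to 133.8 TPM). FOXE1 was at 0.62 and 0.55 TPM in SS and 0.78 to 1.59 TPM in the others. TG, SLC5A5 and NKX2-1 were under 1 TPM, so most of the defining markers of thyroid follicular cells were at or near 0. The 4 leukocyte markers summed to 71.1 to 110.4 TPM, nearly all from CD68 (70.5 to 109.4 TPM), a lysosomal protein, with PTPRC at 0.53 to 0.77 TPM and CD3E at most at 0.06 TPM. The 4 fibroblast markers summed to 172 to 279 TPM, nearly all from the collagen gene COL1A1 (167.5 to 273.2 TPM), with LUM at 4.17 to 8.80 TPM and COL1A2 and DCN near 0. Both sums were lowest in the SS libraries and highest in SS+NAC. The part in the results of these sums, and of the single markers that differed in SS, was not tested. The 3 endothelial markers summed to 0.47 to 0.77 TPM. In bulk RNA, fewer cells and less RNA per cell cannot be told apart.

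The complex I genes were well expressed, and their levels spanned a wide range. Among subunits the TPM (a level scaled for transcript length and depth) in control ran from 30.8 for NDUFA6 to 669 for NDUFB9, with a median of 168. NDUFB9, an accessory subunit of the distal membrane arm, had 662 and 677 TPM in control, 748 and 749 in SS, and 663 and 661 in SS+NAC. NDUFS6, which helps form the NADH-binding end, followed with 443 and 458 TPM in control, 525 and 573 in SS, and 452 and 391 in SS+NAC. The gap from NDUFB9 to NDUFS6 was larger than the spread of their libraries. NDUFA3, a small membrane arm subunit, had 456 and 438 TPM in control, which overlapped those of NDUFS6. The assembly factors lay lower, with a median of 31.1 TPM and a range from 12.7 for NDUFAF7 to 177 for NDUFAF2. NDUFA4L2 was lowest of all 48, with 3.02 and 3.76 TPM in control.

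**Figure D1:**
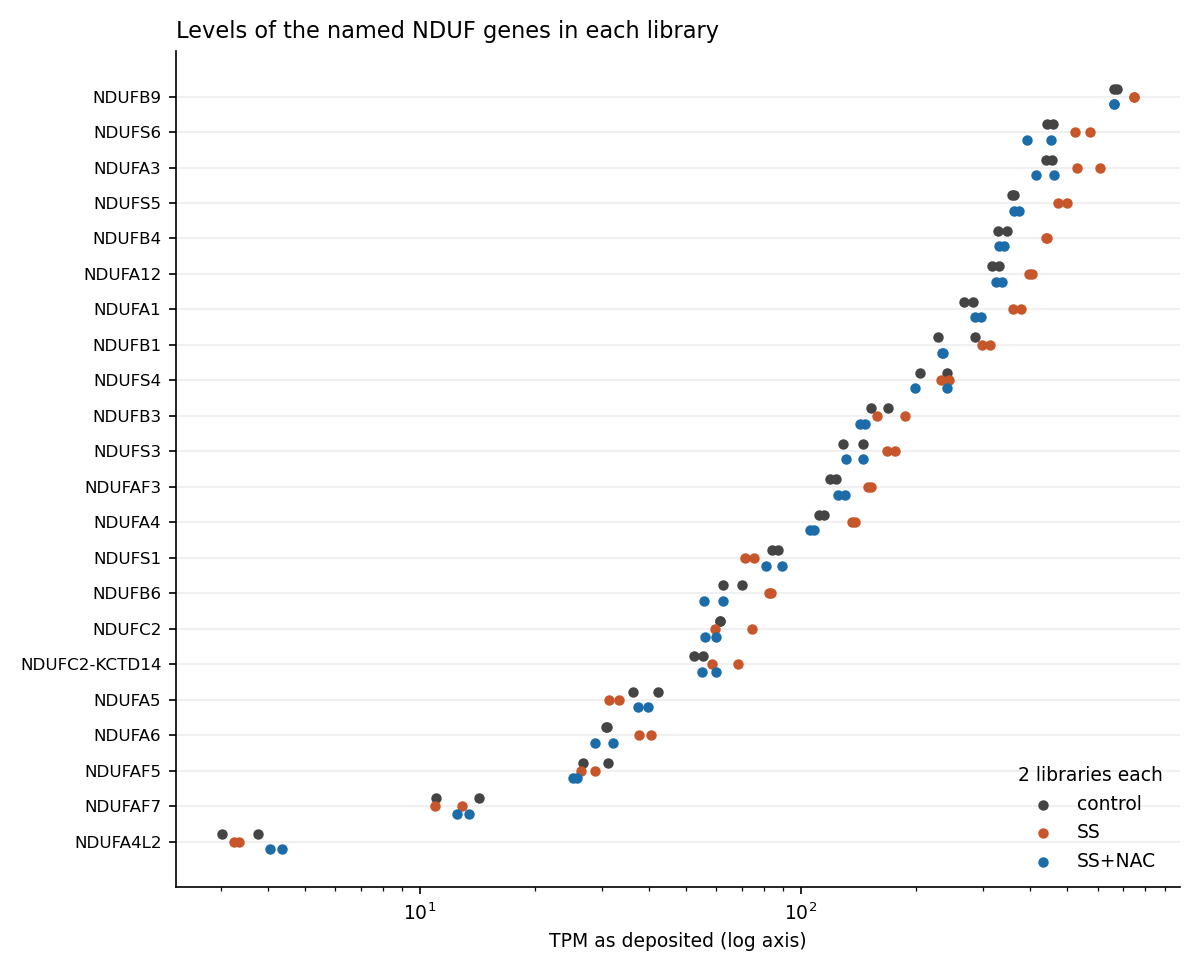
TPM as deposited (log axis) of the 22 genes named by rule, with 2 points per group for the 2 libraries of control, SS and SS+NAC. NDUFB9 stands at the top (669 TPM in control) and NDUFA4L2 at the bottom (3.39 TPM in control). For NDUFS1 and NDUFA5 both SS points lie to the left of both control points.

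In SS, most nuclear-encoded complex I mRNAs rose on the scale of counts, in both arms of the enzyme. The subunits encoded in mitochondrial DNA carry other symbols and were not analysed here. Of the 48 genes, 43 were higher than in control and 0 were lower (edgeR quasi-likelihood test, adjusted p at most 0.05). Over all tested genes 40.0% were called in either direction and 18.6% were called higher. The share of all tested genes called higher was 74.0% among transcripts under 1000 bases, a class that holds 28 of the 48 genes, and with an offset for length, described below, 2 of the 48 were called. Among subunits 35 of 37 rose, with a median log2 fold change of 0.55, and among NDUFAF assembly factors 6 of 8 rose, with a median of 0.35. The median over all tested genes was 0.003. In CPM (counts scaled to library size), the SS pair was above the control pair for 46 of the 48 genes, against 36.3% of all tested genes. The CPM of the 37 subunits summed to 2899 and 2922 in control, 3842 and 4379 in SS, and 2904 and 2702 in SS+NAC. The second SS library was thus further from control than the first. All fold changes below are on the log2 scale of fitted counts, with the standard error (SE).

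Of all tested genes 18.6% were called higher, and of those under 1000 bases 74.0%. Of the 7 core subunits of the matrix arm, 6 rose (median 0.44). The largest of them was NDUFS3, a subunit of the ubiquinone-binding module, with 61.0 and 70.0 CPM in control and 92.9 and 107 in SS. Its log2 fold change was 0.61 (SE 0.11, adjusted p = 0.00163). The SS libraries were above both others without overlap. NDUFS1, the largest core subunit, which carries several of the iron-sulfur clusters, was the exception. It had 121 and 127 CPM in control, 125 and 130 in SS, and 116 and 121 in SS+NAC. The SS libraries of NDUFS1 overlapped those of control and lay above both of SS+NAC. Its log2 fold change against control was 0.041 (95% interval -0.12 to 0.20, adjusted p = 0.686).

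Of the 10 supernumerary subunits of the matrix arm, 9 rose (median 0.56), where 18.6% of all tested genes and 74.0% under 1000 bases did. NDUFA12, a small subunit related to the assembly factor NDUFAF2, had 88.5 and 93.5 CPM in control and 131 and 142 in SS, a log2 fold change of 0.58 (SE 0.075, adjusted p = 0.000381). NDUFS6 rose by 0.57 (SE 0.11, adjusted p = 0.00302), from 116 and 122 to 160 and 192 CPM. NDUFS4, a subunit whose loss causes Leigh syndrome, had 78.3 and 67.9 CPM in control and 92.6 and 97.6 in SS. Its log2 fold change of 0.38 (SE 0.092, adjusted p = 0.00823) lost its call without the second control library (adjusted p = 0.0792) and without the second SS library (adjusted p = 0.0672). NDUFA5 did not pass the test, with 59.6 and 53.1 CPM in control and 54.2 and 56.7 in SS. Its log2 fold change was -0.022 (95% interval -0.20 to 0.16, adjusted p = 0.859). NDUFA5 and NDUFS1 were the only 2 subunits not called in this comparison.

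All 9 subunits of the proximal membrane arm rose (median 0.60), where 18.6% of all tested genes and 74.0% of those under 1000 bases did. NDUFS5 had the lowest adjusted p of the 48 genes. NDUFS5, a small protein of the intermembrane-space side, is encoded at chr1:39026318-39034636 (GRCh38). It had 98.2 and 99.2 CPM in control, 159 and 165 in SS, and 99.2 and 95.6 in SS+NAC. The SS libraries stood clear of the other 4, which overlapped each other. Its log2 fold change was 0.71 (SE 0.071, adjusted p = 0.000136), a 1.64-fold increase. NDUFA1, a short membrane-anchored subunit encoded on the X chromosome, rose by 0.70 (SE 0.092) from 61.8 and 66.6 to 96.8 and 112 CPM. NDUFA3 rose by 0.63 (SE 0.12) from 74.6 and 73.5 to 102 and 128 CPM. The smallest change in this arm was that of NDUFA10, at 0.31.

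All 11 subunits of the distal membrane arm, NDUFB1 to NDUFB11, rose as well (median 0.53, range 0.35 to 0.68). Among all tested genes the share called higher was 18.6%, and under 1000 bases it was 74.0%. NDUFB4 had 103 and 99.4 CPM in control and 153 and 167 in SS, a log2 fold change of 0.67 (SE 0.076, adjusted p = 0.000226). NDUFB9 rose by 0.44 (SE 0.080, adjusted p = 0.00187) and NDUFB1 by 0.53 (SE 0.098, adjusted p = 0.00195). NDUFB6 rose by 0.61 (SE 0.089, adjusted p = 0.000647). NDUFB3 had the highest adjusted p of the arm (0.0217), with 62.7 and 57.8 CPM in control and 68.5 and 89.4 in SS. Its call was lost without either control library and without the second SS library, where its log2 fold change was 0.18.

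Among the assembly factors, NDUFAF2, which binds a late assembly intermediate, had the largest log2 fold change of the 48 genes, 0.75 (SE 0.11, adjusted p = 0.000679). It had 59.4 and 66.0 CPM in control and 93.1 and 119 in SS. NDUFAF3, which acts with NDUFAF4 in building the matrix arm, rose by 0.58 (SE 0.083, adjusted p = 0.000596), from 64.3 and 64.8 to 91.1 and 102 CPM. NDUFAF5, which modifies the core subunit NDUFS7, did not pass the test (0.21, SE 0.088, adjusted p = 0.0819), although its SS libraries (22.2 and 22.2 CPM) lay above its control libraries (19.3 and 19.1). NDUFAF7, a methyltransferase, did not pass either (0.26, SE 0.12, adjusted p = 0.126). The count of 6 assembly factors fell to 3 without the first control library and to 3 without the second SS library. Outside complex I, NDUFA4 rose by 0.56 (SE 0.077, adjusted p = 0.000519), and NDUFA4L2 did not pass the test (0.23, SE 0.23, adjusted p = 0.453).

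**Figure D2:**
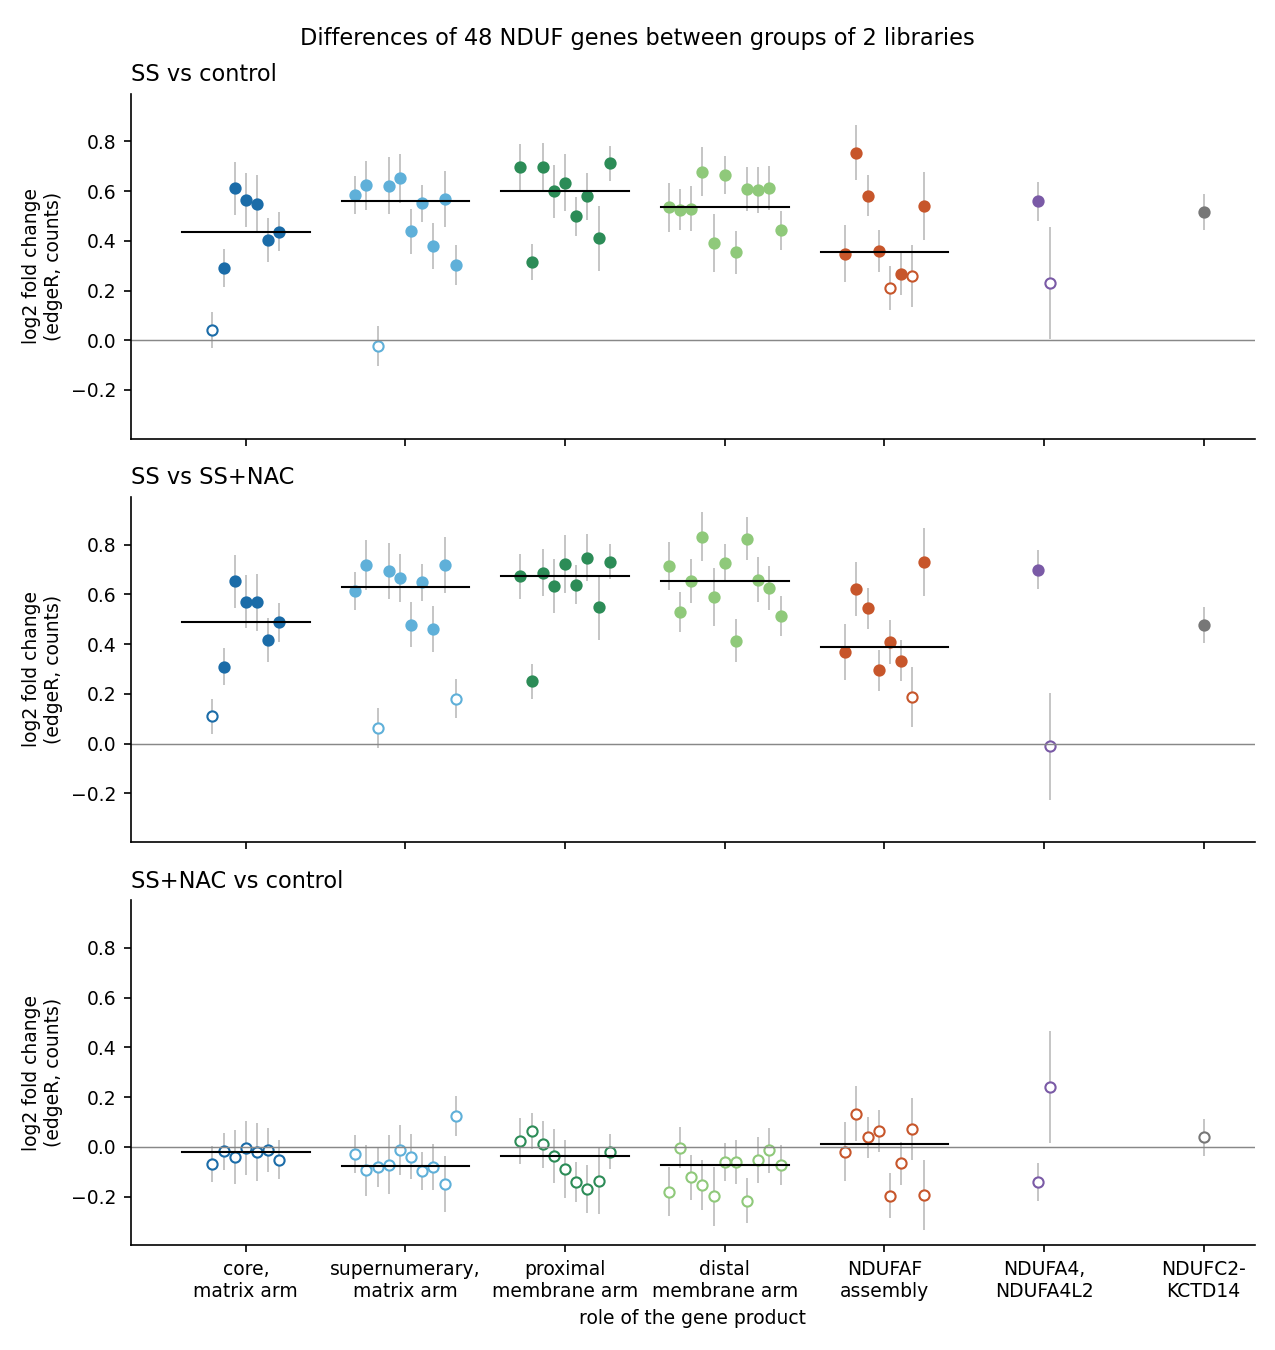
Log2 fold changes of the 48 genes by role in the 3 comparisons of groups of 2 libraries. Points are genes, bars are standard errors, filled points have an adjusted p of at most 0.05 and black lines are role medians. SS is higher than control and than SS+NAC for 43 genes each, and no gene is filled for SS+NAC against control.

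SS against SS+NAC gave a like picture, and it shares the SS libraries with the first comparison, so the values are set side by side only. Of the 48 genes, 43 were higher in SS than in SS+NAC and 0 were lower, where 42.7% of all tested genes were called in either direction and 19.6% were called higher. Among subunits 34 of 37 were higher (median 0.63) and among NDUFAF assembly factors 7 of 8 (median 0.39). In CPM the SS pair was above the SS+NAC pair for 47 of 48 genes, against 32.3% of all tested genes. By role, 6 of 7 core and 8 of 10 supernumerary matrix subunits were higher, with all 9 proximal and all 11 distal membrane subunits. Under 1000 bases, 71.2% of all tested genes were called higher.

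NDUFB2 differed most, by 0.83 (SE 0.098), and NDUFB6, which is encoded at chr9:32552999-32573184, differed by 0.82 (SE 0.088, adjusted p = 0.000221). NDUFB6 had 40.6 and 45.0 CPM in SS and 23.6 and 24.7 in SS+NAC, without overlap. NDUFS5 was higher by 0.73 (SE 0.070, adjusted p = 0.000154). NDUFAF5 passed here, at 0.41 (SE 0.088, adjusted p = 0.00424), with 17.1 and 16.3 CPM in SS+NAC. NDUFS1 (0.11, 95% interval -0.051 to 0.27), NDUFA5 (0.061, 95% interval -0.12 to 0.24) and NDUFV3 (0.18, adjusted p = 0.0916) were the 3 subunits that did not pass. The count of 7 assembly factors fell to 4 without the second SS library. Whether NDUFAF5 or NDUFV3 responds differently in the comparisons that did and did not call it was not tested.

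SS+NAC against control called none of the 48 genes by edgeR, in either direction, and DESeq2 called none of the 37 subunits or 8 NDUFAF genes. Among all tested genes 2.01% were called in either direction, 1.36% higher and 0.657% lower. Before adjustment 1 gene was under 0.05, and the like count over all tested genes was not taken. This gene was NDUFB6, with a log2 fold change of -0.22 (SE 0.091, adjusted p = 0.279). The median was -0.060 over the subunits and 0.0094 over the assembly factors. The estimate was below 0 for 33 of the 37 subunits on counts, for 26 with the length offset described below and for 20 on the log2(TPM + 1) scale, so this count depends on the scale. For NDUFS5 the 95% interval of the difference was -0.18 to 0.14, and for NDUFB9 -0.25 to 0.11. These intervals leave room for small differences in either direction.

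The TPM scale gave smaller differences. In TPM the 37 subunits summed to 7608 and 7472 in control, 8910 and 9296 in SS, and 7563 and 7445 in SS+NAC. The log2 ratio of the group means of SS and control was 0.27 in TPM and 0.50 in CPM. The median over all tested genes was -0.20 on the log2(TPM + 1) scale, against 0.003 for counts, and the FPKM values, from which this scale follows, summed to more in both SS libraries (572635 and 592277) than in control (512438 and 515237). In TPM, the SS pair was above the control pair for 35 of 48 genes, where 14.3% of all tested genes did so, and below them for 2, where 59.5% of all tested genes did so. The 2 were NDUFS1, with 83.9 and 87.1 TPM in control and 75.5 and 71.1 in SS, and NDUFA5, with 42.2 and 36.3 in control and 33.2 and 31.4 in SS. Of the assembly factors, 3 of 8 lay above and the rest overlapped. Against SS+NAC, 34 of 48 genes lay above (9.98% of all tested genes) and 6 below (65.2% of all tested genes). Among those below were NDUFS1, NDUFV3, NDUFA5, NDUFA10 and NDUFA4L2. For NDUFA4L2 the TPM were 3.35 and 3.25 in SS and 4.05 and 4.35 in SS+NAC. NDUFA10 was called higher in SS than in SS+NAC on counts, so its direction depends on the scale.

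The size of the change followed the length of the transcript. The effective length is the number of positions at which a read can start, as implied by the count, the FPKM and the library total, and it ran from 326 bases for NDUFA3 to 2848 bases for NDUFS1 among the 48 genes, with a median of 806. Across the 48 genes the rank correlation (Spearman) between fold change and effective length was -0.683 for SS against control and -0.693 for SS against SS+NAC. Across all 14005 tested genes it was -0.681 and -0.637. For SS+NAC against control it was 0.22 across the 48 genes and -0.039 across all genes. These values describe genes measured in the same 6 libraries, which are not independent replicates. The fold change also went with the control TPM of the 48 genes (Spearman correlation 0.61 for SS against control), and with the length offset described below this turned to -0.167.

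Among the 28 genes under 1000 bases, 28 rose in SS against control, where 74.0% of all tested genes of that length did so. From 1000 to 2000 bases 10 of 12 rose (all genes 47.7%), and over 2000 bases 5 of 8 rose (all genes 6.24%). Against SS+NAC the counts were 28 of 28 (all genes 71.2%), 10 of 12 (all genes 48.2%) and 5 of 8 (all genes 7.69%). The median log2 fold change of genes under 1000 bases against control was 0.59 for the NDUF genes and 0.52 for all genes. Over 2000 bases it was 0.32 for the NDUF genes and -0.12 for all genes. The genes of over 2000 bases hold both NDUF subunits that did not rise, NDUFS1 (2848 bases) and NDUFA5 (2819 bases), and also NDUFC2 (2487 bases) and NDUFA4 (2062 bases), which did.

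Each gene was then set against the trend of fold change on length over all tested genes. For SS against control 34 of the 48 genes lay above this trend and 14 below, with a median distance of 0.065. Of all 14005 tested genes, 7065 lay above it. The middle 50% of all tested genes lay between -0.15 and 0.15 of it. NDUFC2-KCTD14 was furthest above (0.40), followed by NDUFA4 (0.39) and NDUFC2 (0.33). NDUFA4L2 (-0.17), NDUFS4 (-0.16) and NDUFAF5 (-0.15) were furthest below. NDUFS1 and NDUFA5, which did not pass the test, lay at 0.027 and -0.041 from it. Against SS+NAC 39 of 48 lay above the trend (median 0.080), where 7109 of all tested genes did. NDUFA4 was furthest above (0.55) and NDUFA4L2 furthest below (-0.39).

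**Figure D3:**
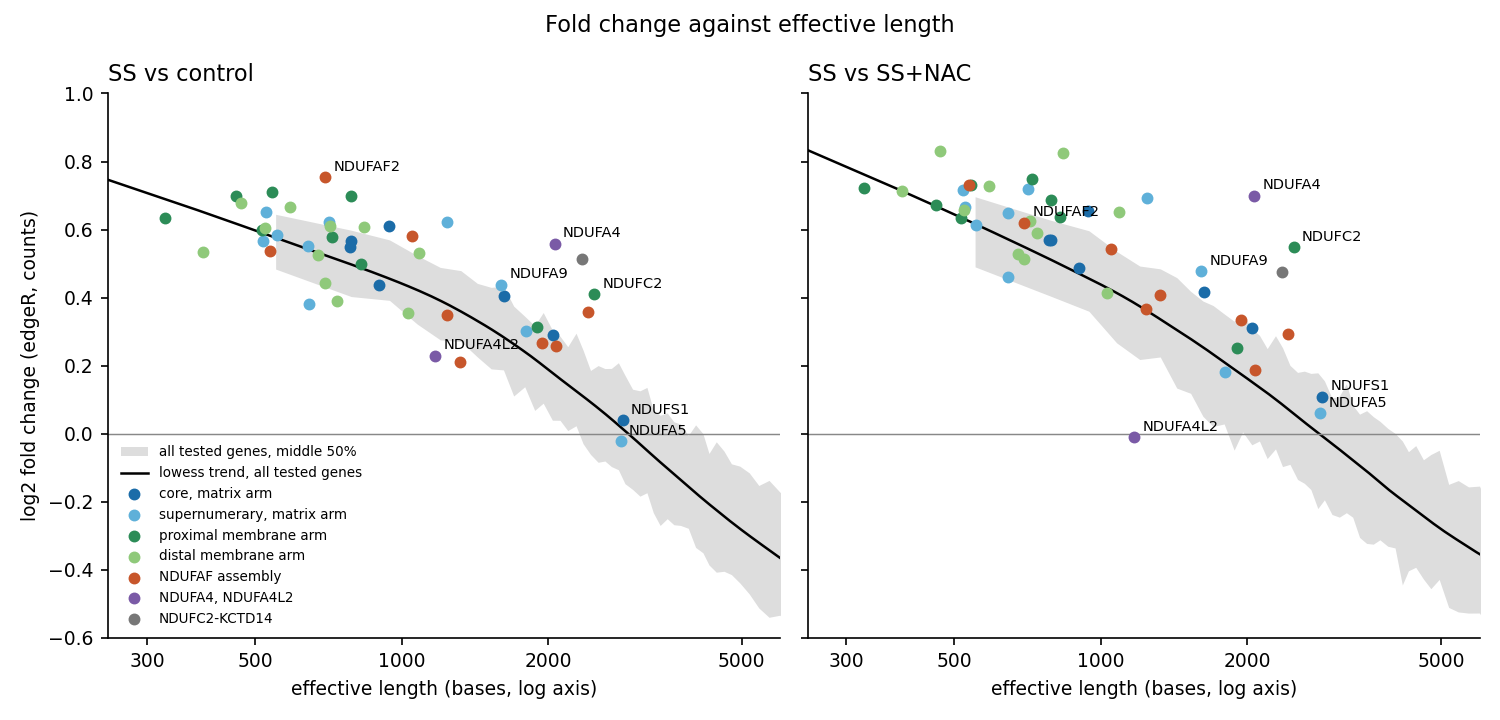
Log2 fold change against effective length (log axis) for SS against control (left) and SS against SS+NAC (right). Points are the 48 NDUF genes coloured by role, the grey band holds the middle 50% of all tested genes in bins of length and the line is their lowess trend. The NDUF genes fall from left to right with the line, and NDUFA4 and NDUFC2 lie above the band.

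An offset that removes this trend from each library was added to the same fit. With it, the medians for SS against control fell to 0.074 for the subunits and 0.085 for the assembly factors, and 0 of 37 subunits and 0 of 8 assembly factors were called. Before adjustment 3 subunits and 3 assembly factors were under 0.05, and the like count over all tested genes was not taken. The 2 genes still called, where 9.20% of all tested genes were, were NDUFA4 and NDUFC2-KCTD14. NDUFA4 had 119 and 118 CPM in control, 168 and 181 in SS, and 112 and 103 in SS+NAC, and its log2 fold change with the offset was 0.39 (SE 0.068, adjusted p = 0.00759). NDUFC2-KCTD14 kept 0.41 (adjusted p = 0.00723). NDUFS5 had 0.15 with the offset (95% interval -0.011 to 0.31, adjusted p = 0.228), NDUFB4 0.12 and NDUFAF3 0.16. For 12 of the 48 genes the estimate turned from above to below 0 (-0.16 to -0.0083), and 0 of these passed the test. They were the subunits NDUFA3, NDUFB1, NDUFB3, NDUFB5, NDUFB9, NDUFS4, NDUFS6 and NDUFV2, the assembly factors NDUFAF1, NDUFAF5 and NDUFAF8, and NDUFA4L2.

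For SS against SS+NAC the offset left 5 of 48 genes, where 14.5% of all tested genes were called. They were the subunits NDUFB6 (0.33, adjusted p = 0.0271), NDUFA6 (0.33, adjusted p = 0.0447) and NDUFC2 (0.49, adjusted p = 0.0299), with NDUFA4 (0.55, adjusted p = 0.00139) and NDUFC2-KCTD14 (0.39, adjusted p = 0.00676). NDUFA6, a matrix arm subunit of the LYR motif family, had 27.4 and 32.5 CPM in SS and 20.1 and 16.9 in SS+NAC. For SS+NAC against control the offset called none of the 48 genes, where 2.01% of all tested genes were called. Of the 48, 3 were under 0.05 before adjustment, a count not set beside that of all tested genes. Both shares of called NDUF genes under the offset lay below those of all genes. Why fold change and length went together was not tested.

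**Figure D4:**
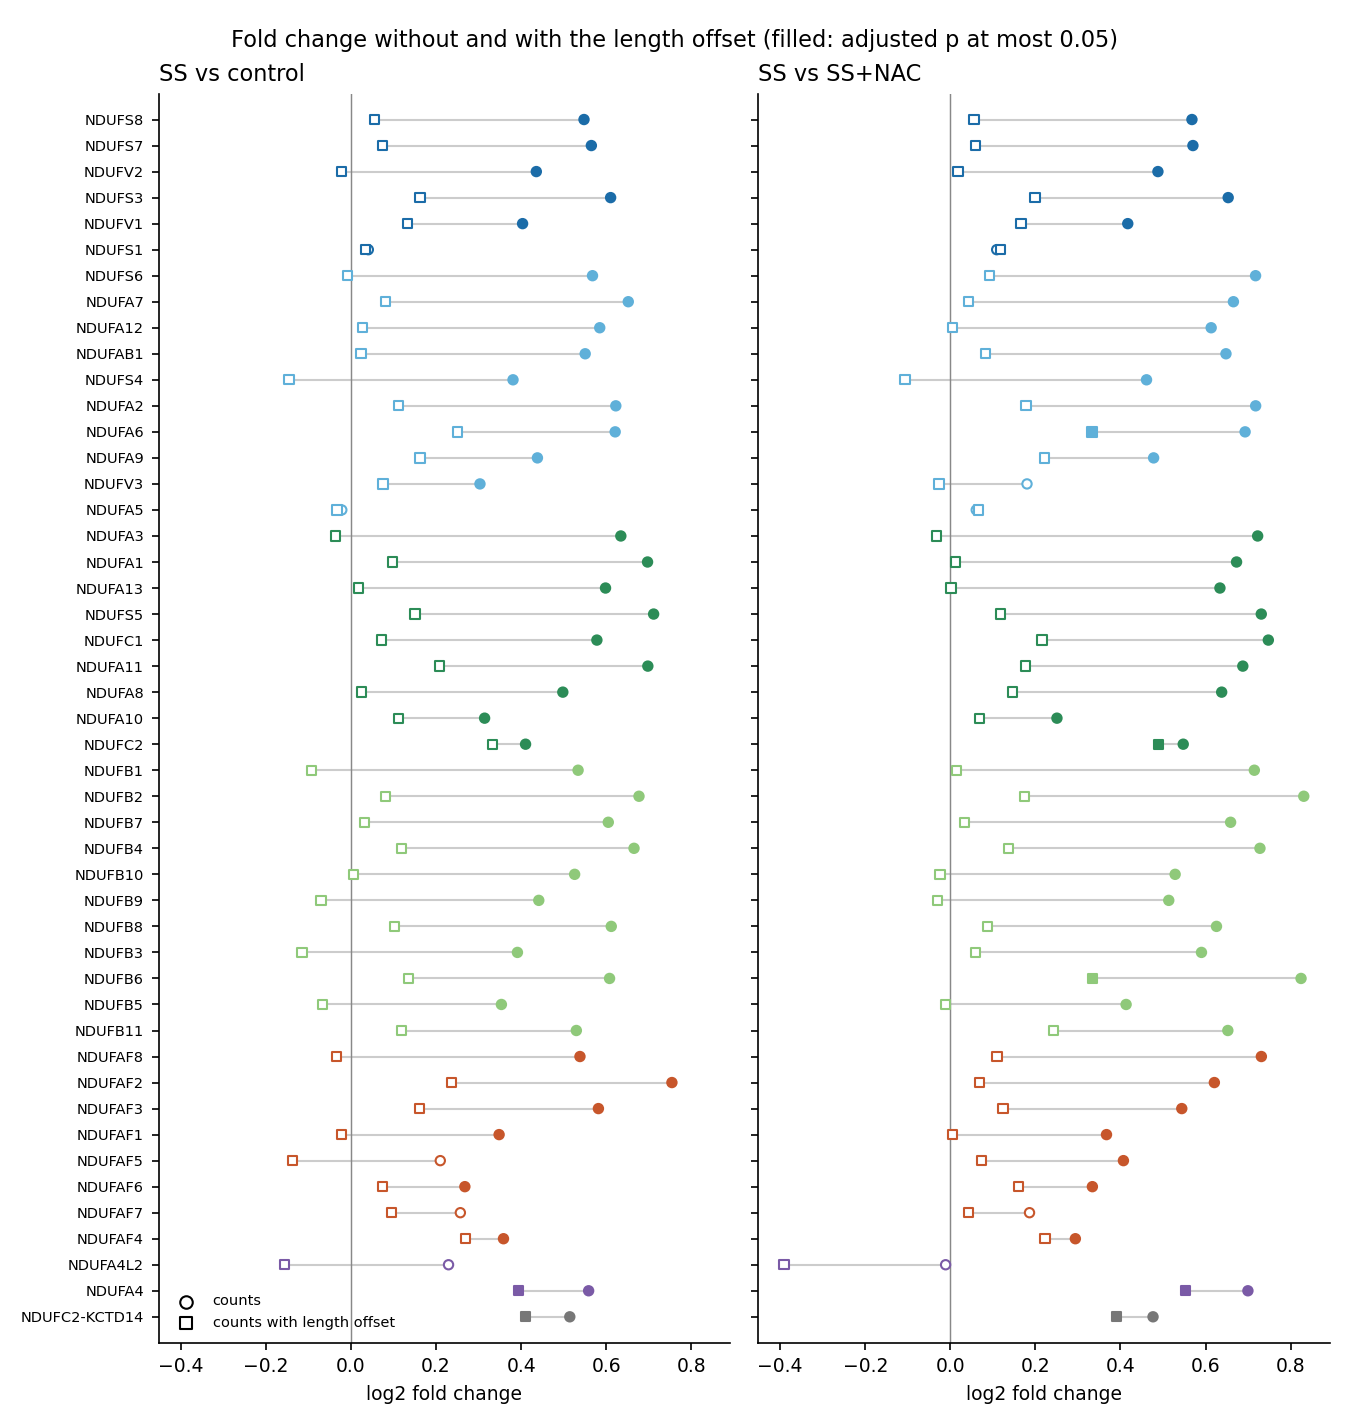
Log2 fold changes of the NDUF genes listed on the axis from counts (circles) and from counts with the length offset (squares), for SS against control (left) and SS against SS+NAC (right). Genes are ordered by role and by length within a role, and filled symbols have an adjusted p of at most 0.05. Most lines run from near 0.5 to near 0, and 2 squares on the left and 5 on the right are filled.

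NDUFC2 and NDUFC2-KCTD14 share exons, on chr11:78068304-78080219 for NDUFC2, and the estimate divides their reads, so their separate values are uncertain. NDUFC2 had 76.7 and 78.3 CPM in control, 86.6 and 119.5 in SS, and 75.3 and 65.7 in SS+NAC. NDUFC2-KCTD14 had 65.4 and 63.1 CPM in control, 94.6 and 88.9 in SS, and 65.3 and 66.6 in SS+NAC. NDUFC2 was lower in the first SS library than in the second, and the read-through row was higher there. Their sum was 142 and 141 CPM in control, 181 and 208 in SS, and 141 and 132 in SS+NAC, a log2 ratio of 0.46 between SS and control. The call for NDUFC2 against control (0.41, adjusted p = 0.0284) was lost without either control library and without the second SS library.

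The implied effective length of a gene can also differ between libraries when its isoforms change in share. Of the 48 genes 1 was at least 5% shorter in SS than in control without overlap of the libraries, where 6.42% of 10864 genes were, so the NDUF share was below that of all genes. This gene, NDUFV3, which has a long and a short protein isoform, was picked out after its values were seen. Its length was 1888 and 1841 bases in control, 1736 and 1745 in SS, and 1795 and 1791 in SS+NAC, a change of -6.66% in SS. The change in NDUFS1 was -0.99% and in NDUFA5 -1.54%.

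The promoters of the NDUF genes were read for 4 short motifs bound by factors known to control respiratory chain genes. Windows from 250 bases before to 50 after the RefSeq start (GRCh38.p14) were found for 40 of the 48 genes. Only the first start listed for each gene was read, and by this rule all genes together gave 27305 promoters. The motifs were searched on both strands by exact letters, and a match is a description, not a binding site. The NRF1-type motif GCGCATGC was in 7 of 40 windows (17.5%, all promoters 3.27%). The YY1-type motif AAGATGGCG was in 5 (12.5%, all promoters 1.85%). The ETS-type motif CCGGAAG, read by GABP, was in 6 (15.0%, all promoters 10.7%), and the ERR-type motif TCAAGGTCA was in 0 (all promoters 0.359%). Any of the 4 was in 15 windows (37.5%, all promoters 14.9%). The motifs do not overlap each other in the windows shown, except that the NRF1-type motif overlaps its own reverse complement.

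Windows are given for NDUFB4, NDUFA8 and NDUFS7, 3 subunits that rose, and for NDUFS1, which did not pass the test. Each runs 5′ to 3′ from 250 bases before to 30 after the start, and capitals mark motif matches. NDUFB4 lies at chr3:120596086-120596365 on the plus strand, NDUFA8 at chr9:122159750-122160029 on the minus strand, NDUFS7 at chr19:1383657-1383936 on the plus strand and NDUFS1 at chr2:206159415-206159694 on the minus strand.
NDUFB4: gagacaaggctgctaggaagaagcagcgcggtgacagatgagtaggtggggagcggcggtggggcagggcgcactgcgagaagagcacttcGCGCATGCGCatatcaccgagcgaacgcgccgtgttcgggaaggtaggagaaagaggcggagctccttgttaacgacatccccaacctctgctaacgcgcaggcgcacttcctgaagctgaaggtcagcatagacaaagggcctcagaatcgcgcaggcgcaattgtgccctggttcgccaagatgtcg
NDUFA8: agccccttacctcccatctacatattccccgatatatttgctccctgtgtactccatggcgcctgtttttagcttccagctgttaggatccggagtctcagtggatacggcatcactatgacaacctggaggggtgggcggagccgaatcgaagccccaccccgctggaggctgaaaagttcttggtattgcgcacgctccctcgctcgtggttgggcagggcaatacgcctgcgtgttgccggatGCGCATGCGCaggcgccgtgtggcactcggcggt
NDUFS7: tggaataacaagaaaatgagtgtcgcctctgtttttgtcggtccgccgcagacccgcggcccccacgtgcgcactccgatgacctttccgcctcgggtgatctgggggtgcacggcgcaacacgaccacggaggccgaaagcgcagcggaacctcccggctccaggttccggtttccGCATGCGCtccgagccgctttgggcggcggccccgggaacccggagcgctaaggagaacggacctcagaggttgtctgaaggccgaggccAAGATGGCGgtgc
NDUFS1: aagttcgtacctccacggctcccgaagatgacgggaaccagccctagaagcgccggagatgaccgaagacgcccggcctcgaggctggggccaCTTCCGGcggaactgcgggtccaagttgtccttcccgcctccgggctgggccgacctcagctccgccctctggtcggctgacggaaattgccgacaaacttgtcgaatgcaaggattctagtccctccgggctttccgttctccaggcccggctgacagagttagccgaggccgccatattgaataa

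NDUFB4 and NDUFA8 each hold the NRF1-type motif on both strands in a single overlapping stretch, which begins at -159 in NDUFB4 and at -4, next to the start, in NDUFA8. NDUFS7 holds the NRF1-type motif at -73 and the YY1-type motif at 18, just past the start. NDUFS1 holds the ETS-type motif at -157 and neither of those 2. Beside these windows, NDUFB4 rose by 0.67, NDUFA8 by 0.50 and NDUFS7 by 0.57 against control, and NDUFS1 had 0.041. With the length offset these values were 0.12, 0.024, 0.074 and 0.035. NDUFAF5, which did not pass the test against control, holds the NRF1-type motif at -4 as NDUFA8 does. The windows were chosen with these values known, so they do not set motifs against fold changes. NDUFA12 and NDUFAF2, which also rose, hold none of the 4 motifs in these windows.

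No tested mRNA of the factors themselves was called higher in SS than in control. Of 9 regulators of respiratory chain genes 8 were tested, of which 0 were higher and 4 were lower, where 18.6% of all tested genes were called higher and 21.4% lower. The 4 were PPARGC1B (-0.72, SE 0.12) and PPRC1 (-0.28), both coactivators, GABPA (-0.62, SE 0.13), the DNA-binding chain of GABP, and YY1 (-0.34, SE 0.075). NRF1 (-0.15, adjusted p = 0.271) and TFAM (-0.17, adjusted p = 0.11) did not pass the test. ESRRA (0.16, adjusted p = 0.127) and GABPB1 (0.094, adjusted p = 0.39) had estimates above 0 and did not pass either. PPARGC1A was not tested. These are long transcripts (2295 bases or more, median 3364 bases). Over 2000 bases, 6.24% of all tested genes were called higher, so 0 of 8 lies near the share of that class. With the length offset YY1 alone was called (-0.29, adjusted p = 0.0344), 1 of 8 where 9.20% of all tested genes were called. Against SS+NAC 1 was higher (ESRRA) and 2 were lower, where 19.6% and 23.1% of all tested genes were. Of those over 2000 bases, 7.69% were called higher against SS+NAC. With the offset GABPA alone was still called there (-0.44, adjusted p = 0.0368).

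Of 14 complex I assembly factors without the NDUF prefix, 6 were higher and 1 was lower in SS than in control, with a median of 0.27. The shares of all tested genes were 18.6% higher and 21.4% lower, and 47.7% of those from 1000 to 2000 bases were higher, the class that holds the median length of this list (1778 bases). TMEM70 (0.44, SE 0.075), which helps join the membrane arm, and DMAC1 (0.42, SE 0.10), a factor of the distal membrane arm, were the highest, and NUBPL (-0.36, SE 0.11), which supplies iron-sulfur clusters, was lower. With the offset TMEM70 alone was called (0.28, adjusted p = 0.0318), while DMAC1 had 0.34 (adjusted p = 0.0606) and NUBPL -0.33 (adjusted p = 0.0974). Of 39 nuclear-encoded subunits of complexes II to V, 38 were higher (18.6% of all tested genes), with a median of 0.53 beside the 0.55 of complex I. Their median effective length was 848 bases, and that of the complex I subunits was 738, in the class under 1000 bases where 74.0% of all tested genes were higher. With the offset 4 of the 39 were called against control (SDHC, UQCRB, UQCRQ and ATP5MC3), near the 9.20% of all tested genes. The median of the 39 was then 0.054 beside 0.074 for complex I. Against SS+NAC 10 of the 39 were called with the offset, where 14.5% of all tested genes were. Of the 37 complex I subunits 3 were called there, and the medians were 0.13 for the 39 and 0.083 for complex I. Complex I was not tested against the other complexes.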

How the data were processed

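RNA-seq of KHM-5M cells comprised 3 groups of 2 libraries. According to the labels and methods, polyadenylated RNA was fragmented, copied from random primers and read single-end, and HISAT2 2.0.4, Bowtie2 2.2.5 and RSEM 1.2.12 were used. Strand and genome annotation are not given in the sources used here. The authors deposited expected counts from RSEM, FPKM values and TPM values for each library. The FPKM and TPM were made by the authors from those counts, length and depth. Their 9 group-mean columns and 9 columns of fold changes and p-values from their own comparisons were not used.

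Expected counts were rounded, filtered with filterByExpr and TMM-scaled, and the 6 libraries were fitted together in edgeR 4.0.16 (R 4.3.3) with quasi-likelihood tests. Benjamini-Hochberg adjustment ran over 14005 genes, and an adjusted p of at most 0.05 was called. The biological coefficient of variation was 6.74%. CPM are TMM-scaled. With 2 against 2 libraries an exact permutation test cannot go below 0.333, so single values carry no such test. The methods call the 2 libraries of a group biological replicates, and the labels do not say whether they were separate cultures, so p-values measure the spread between these libraries. The length offset was, in each library, a lowess (span 0.3) of the deviation of log2 CPM on log2 effective length. The fit was tested on simulated data. Without a length trend in those data, the share of false calls was above the level that the adjustment aims at, so the adjusted p-values of the fit may be too small. Coordinates came from GENCODE release 29 (GRCh38), the build of the table's chromosome accessions.

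Genes named in full were, in each role, those of lowest and highest adjusted p for SS against control, those called with the offset, the 3 furthest above and below the trend, the 3 longest and shortest and the 2 of highest TPM. Members and lists were chosen with earlier results of these data known. The length classes, the 5% cut on length, the sum of NDUFC2 and its read-through, the TPM comparison, the genes of complexes II to V and the promoters printed were chosen after seeing the values, and genes named outside the rule were likewise picked with their values known. Alternatives were DESeq2 1.42.0, its size factors, other filters, Bonferroni adjustment, a replicate block, the compared groups only and leaving out each library. The values of 1 NDUF gene enter the counts and medians, and its own results are not reported here.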

Additional observations from a re-analysis of the deposited data

How the results depend on the processing

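The calls for complex I genes kept their direction under other size factors, other filters, the DESeq2 test, the compared groups alone and a replicate block, with counts within 1.5 times those reported. With the replicate block, 35 subunits and 4 NDUFAF assembly factors were higher in SS than in control, 34 and 7 were higher than in SS+NAC, and the subunit median was 0.55 and 0.63. Deviations of equal replicate numbers correlated weakly, at 0.113 (control with SS), -0.105 (control with SS+NAC) and -0.175 (SS with SS+NAC). With 2 libraries per group these values cannot settle whether the numbers mark pairs. The length offset moved the medians and estimates, and why transcript length and fold change went together was not tested. Against control it gave 0 subunits, 0 assembly factors, medians of 0.074 and 0.085 and a Spearman correlation of 0.364 with length. Of the 48 single estimates 12 turned from above to below 0, among them -0.036 for NDUFA3, -0.093 for NDUFB1, -0.11 for NDUFB3, -0.071 for NDUFB9, -0.15 for NDUFS4 and -0.0083 for NDUFS6. Against SS+NAC it gave 3 subunits, 0 assembly factors, medians of 0.083 and 0.091 and a correlation of 0.415, and 6 of the 48 estimates turned to below 0, among them -0.032 for NDUFA3, -0.030 for NDUFB9 and -0.11 for NDUFS4. Bonferroni adjustment left 1 subunit and 0 assembly factors against control, and 3 and 0 against SS+NAC. On log2(TPM + 1), chosen after seeing the data, the medians were 0.27 (subunits) and 0.082 (assembly factors) against control, and 0.29 and 0.067 against SS+NAC.

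Leaving out 1 library at a time, the medians against control were 0.44 to 0.64 for the subunits and 0.30 to 0.43 for the assembly factors. Against SS+NAC they were 0.53 to 0.75 and 0.36 to 0.44. The lowest and highest subunit medians came without the second and without the first SS library. The Spearman correlation with length ranged from -0.732 to -0.546 against control and from -0.695 to -0.641 against SS+NAC. With 2 libraries per group, the precision rests on a spread pooled over groups, and left-out groups of 1 library are assumed to vary like the others.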
